A study of Mus musculus with 10 samples.

Results

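The proteasome is the protease complex that degrades ubiquitin-tagged proteins, and its genes were described here in mouse macrophages sorted by whether they had taken up apoptotic cells (Eff+) or not (Eff-). The genes were taken by name: protein-coding genes whose symbol starts with Psma, Psmb, Psmc, Psmd, Psme, Psmf or Psmg followed by a digit, which gave 50 of the 55414 gene identifiers measured. Polyadenylated RNA was sequenced from 10 libraries. In the wound model, macrophages came from skin of LysMCreER/mTmG mice at 3 days after wounding and 6 days of tamoxifen (3 Eff+ and 3 Eff- libraries). In this genotype a tamoxifen-dependent Cre is expressed from the lysozyme M locus, which is active in neutrophils as well as macrophages, and turns on GFP in place of tdTomato at the membrane of cells where it acts. In the culture model, bone marrow cells of wild-type mice were grown for 7 days in GM-CSF and given apoptotic fibroblasts for 12 h before sorting (2 Eff+ and 2 Eff- libraries). The deposited column names of the culture Eff- libraries carry the letters NOAC, so whether those cells were offered apoptotic cells is unclear. The labels do not state that libraries of a group are from different animals or cultures, and p-values therefore reflect the spread between these libraries, which may be technical. These are bulk samples, in which fewer cells of a type and less RNA per cell cannot be told apart.

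Total counts were 39735437 to 57308823 per library in the wound and 17622740 to 27261880 in culture. The wound libraries had counts in 17575 to 19972 genes. In culture, the Eff+ and Eff- libraries numbered 1 had counts in 35649 and 44836 genes, and those numbered 2 in 19649 and 18171. The sorted cells carried macrophage transcripts in every library, with Cd68, a lysosomal glycoprotein of macrophages, at 1025 to 1455 CPM (read counts scaled to a common library size) in the wound and 463 to 2089 CPM in culture. The low culture value was that of Eff- library 1, and the other 3 culture libraries were at 1745 CPM or above. Most of the 11 macrophage markers examined were lower in wound Eff+ than in wound Eff-, as given below.

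The core particle of the proteasome, the 20S, is a barrel of alpha and beta rings whose inner beta subunits cut proteins. The 19S cap sits on the barrel, recognises ubiquitin and unfolds the substrate with a ring of ATPases. Under interferon, immune cells replace the cutting subunits Psmb5, Psmb6 and Psmb7 by Psmb8, Psmb9 and Psmb10, which gives the immunoproteasome, and can replace the cap by the activator PA28, both linked to the production of peptides for MHC class I. In macrophages, proteasomes also degrade the inhibitor of NF-kappaB during inflammatory activation. Of the 50 genes, 14 encode constitutive 20S subunits (Psma1 to Psma7 and Psmb1 to Psmb7), 17 encode 19S subunits, 3 encode the immunoproteasome subunits and 4 are PA28 genes. The others are 4 chaperones of 20S assembly, 3 chaperones of 19S assembly, the activator PA200 (Psme4), the inhibitor PI31 (Psmf1), the testis subunit Psma8 and the thymus subunit Psmb11. Psmc3ip matches by its name but encodes a partner protein in meiotic recombination, and Psme2b is a near copy of Psme2 whose reads may be split with it.

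Promoter windows are shown for Psmb5 and Psmb6 and for the subunits that replace them, Psmb8 and Psmb9, because the exchange of these subunits is the main contrast among the core genes. Each window runs from 250 bases before to 50 bases after the start of the gene, from RefSeq on GRCm38.p6, 5′ to 3′ on the strand of the gene. Capitals mark 1 match to a searched motif in each window.
Psmb5, chr14:54617946-54618245, - strand: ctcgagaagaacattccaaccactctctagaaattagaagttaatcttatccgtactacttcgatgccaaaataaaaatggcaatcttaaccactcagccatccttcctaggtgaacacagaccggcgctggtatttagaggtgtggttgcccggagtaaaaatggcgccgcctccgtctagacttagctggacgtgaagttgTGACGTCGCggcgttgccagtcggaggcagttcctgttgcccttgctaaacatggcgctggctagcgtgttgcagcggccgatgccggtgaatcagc
Psmb6, chr11:70525107-70525406, + strand: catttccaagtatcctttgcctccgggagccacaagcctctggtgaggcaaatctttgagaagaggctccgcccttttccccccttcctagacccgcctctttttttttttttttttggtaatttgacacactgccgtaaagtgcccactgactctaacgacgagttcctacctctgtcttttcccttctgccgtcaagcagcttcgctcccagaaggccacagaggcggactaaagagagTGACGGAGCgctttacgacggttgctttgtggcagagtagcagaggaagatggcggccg
Psmb8, chr17:34197945-34198244, + strand: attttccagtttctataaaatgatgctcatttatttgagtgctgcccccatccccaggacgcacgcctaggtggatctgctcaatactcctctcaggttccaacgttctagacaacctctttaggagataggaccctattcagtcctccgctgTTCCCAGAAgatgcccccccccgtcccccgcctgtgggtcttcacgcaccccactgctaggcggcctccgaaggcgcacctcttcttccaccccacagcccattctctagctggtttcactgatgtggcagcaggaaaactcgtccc
Psmb9, chr17:34187281-34187580, - strand: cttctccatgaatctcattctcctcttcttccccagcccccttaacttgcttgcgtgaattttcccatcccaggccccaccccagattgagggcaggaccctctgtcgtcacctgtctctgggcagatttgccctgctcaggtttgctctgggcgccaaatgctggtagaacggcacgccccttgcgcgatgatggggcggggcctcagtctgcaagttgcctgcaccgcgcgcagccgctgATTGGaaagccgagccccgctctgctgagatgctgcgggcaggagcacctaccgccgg
In Psmb5 the capitals are a match to the core of the antioxidant response element (TGACNNNGC), 47 bases before the start, and in Psmb6 a match to the same motif lies 9 bases before it. In Psmb8 they mark a match to the gamma-activated site (TTCNNNGAA), 97 bases before the start. In Psmb9 they mark the CCAAT box on the other strand (ATTGG), 8 bases before the start. The Psmb9 window shares 275 of its 300 bases with that of Tap1, a peptide transporter gene that is read in the opposite direction.

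Windows were found for 42 of the 50 genes and searched on both strands for 4 motifs, each counted by itself even where matches could share bases. The antioxidant core was in 6 of the 42 windows (14.3%), against 12.4% of all 32851 windows in the RefSeq table. The 6 were those of Psmb5, Psmb6, Psmc6, Psmd12, Psmd9 and Psme4. CCAAT was in 15 (35.7%, against 37.4%) and the gamma-activated site in 3 (7.14%, against 8.3%), those of Psmb8, Psmd2 and Psmg1. The core of the interferon-stimulated response element (GAAA, any 2 bases, GAAA) was in 5 (11.9%, against 3.44%): those of Psme1, Psmb3, Psmd4, Psmd9 and Psmg4. Such matches describe the letters of a window and do not show that a factor binds there.

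Levels per kilobase of exon differed more between subunits than between groups of libraries. The divisor was the merged exon length of each gene, so the ranking of subunits also depends on the annotated length. Psmb7 was divided by 3421 bases and Psmb2 by 1204, and their wound Eff- means were 56.4 and 182 CPM before division. In wound Eff- macrophages the 14 constitutive 20S genes had a median of 68.9 CPM per kb and spanned a 9.14-fold range, from Psmb7 at 16.5 to Psmb2 at 151. The 17 subunits of the 19S had a median of 46.1 CPM per kb, from Psmd3 at 11.6 to Psmd8 at 89.4. Psmb7 was the lowest 20S gene and Psmd3 the lowest 19S gene in each of the 4 groups. Psmb8 (62.4 CPM per kb in wound Eff-) and Psmb10 (61.3) were near the median of the constitutive core, and Psmb9 was lower at 19.2. Of the PA28 genes, Psme2 had 109 CPM per kb, Psme1 59.6 and Psme3, which encodes the nuclear PA28 gamma, 5.05. Of the assembly chaperones of the core, Psmg4 was at 21.8 CPM per kb, and Psmg1, Psmg2 and Psmg3 were at 10.6, 6.13 and 1.65.

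**Figure D1:**
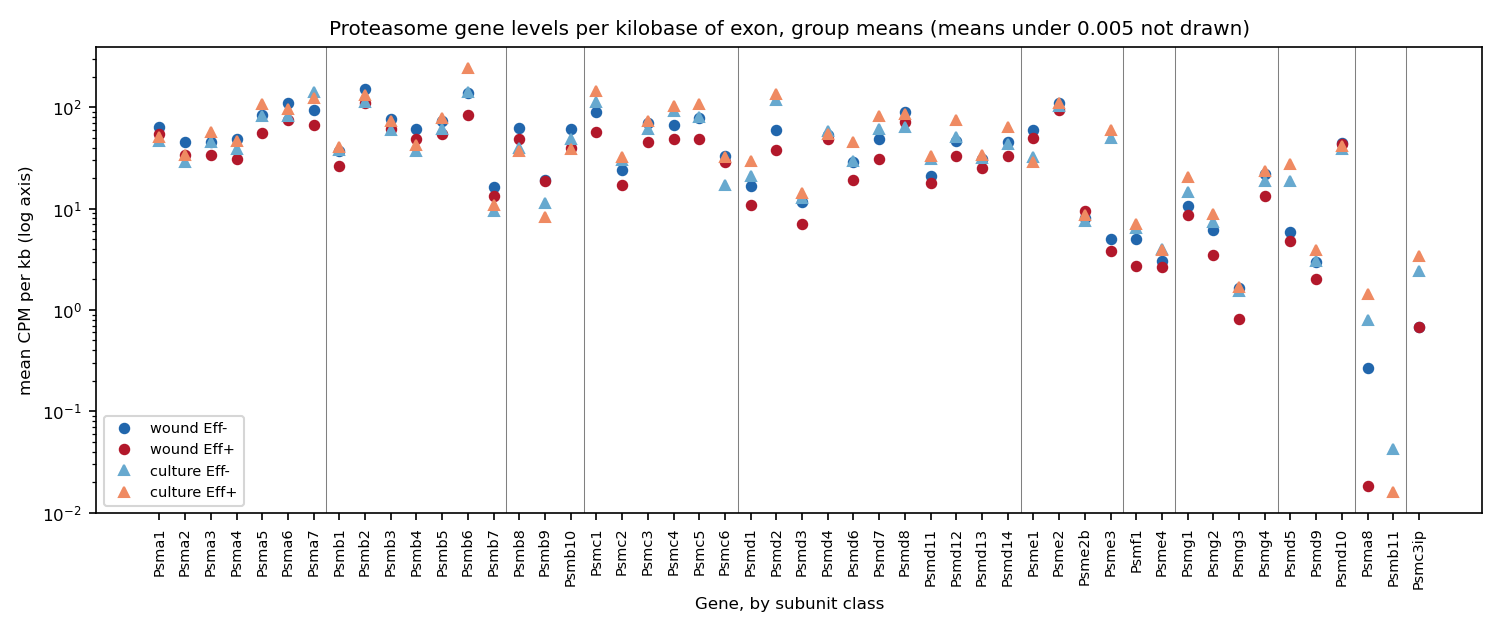
Mean CPM per kilobase of exon (log axis) of the 50 genes in each of the 4 groups, with genes ordered by subunit class and thin lines between classes. Circles are wound groups and triangles culture groups, and means under 0.005 are not drawn. Most core and cap genes lie between 10 and 150, while the assembly chaperones Psmg2, Psmg3 and Psmd9, Psmf1, Psme4 and the tissue-specific genes lie below 10 in each group.

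The first comparison set wound Eff+ against wound Eff- macrophages, to ask what goes with engulfment in tissue. Transcripts of the core and the cap were lower in wound Eff+ macrophages when summed over subunits, and 6 of the single genes passed a test. The share of all counts that fell on the 50 genes was 0.401, 0.314 and 0.361% in Eff+ (libraries numbered 1, 2 and 3, an order kept throughout) and 0.652, 0.679 and 0.576% in Eff-. The groups did not overlap. After trimmed mean of M-values (TMM) scaling, which corrects for differences in library composition and underlies all CPM values given here, the sums were 4523, 3854 and 3922 CPM in Eff+ against 5683, 5697 and 5255 CPM in Eff-.

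The edgeR quasi-likelihood test, with p-values adjusted by the Benjamini-Hochberg method over 14908 genes and a threshold of 0.05, found that 6 of the 49 tested genes fell and 0 rose in Eff+. Over all genes tested, 3.79% fell and 7.39% rose, 11.2% in all. The 6 were Psmb6 of the core and Psmc1, Psmc5, Psmd2, Psmd3 and Psmd6 of the cap. At an unadjusted p under 0.05 there were 28 of the 49, each of them lower, against 14.2% of all genes lower and 29.9% in either direction at that p, and DESeq2 and limma-voom likewise called 0 proteasome genes higher. For 34 of the 49 every Eff+ value lay below every Eff- value, as for 18.1% of all genes, and for 0 did every Eff+ value lie above, as for 18.7% of all genes. The log2 fold change was below 0 for 47 of the 49, against 51.3% of all genes, with a median of -0.44 against -0.03. These counts include the testis subunit Psma8, which entered the test only through its Eff- counts; without it they were 27, 33 and 46 of 48. Psmb11 was not tested because it had almost no counts.

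The scaling of the libraries and single libraries set how many genes were called. With library totals as the only scaling, 36 fell (17.8% of all genes), all 49 fold changes were below 0, and the median of all genes moved from -0.03 to -0.42, so that the median of the proteasome genes (-0.83) lay about as far below it as before. DESeq2 called 15 lower (8.58% of all genes), limma-voom 11 (4.98%) and edgeR with the library number as a block 16 (8.51%). With relative log expression (RLE) scaling 4 fell (3.1%), and Psmc5 and Psmd6 no longer passed (adjusted p = 0.0522 and 0.0597 by edgeR). Without a filter on low counts 6 fell (2.48%), of which 5 were among the first 6, and Psmd6 did not pass (adjusted p = 0.0624). Without Eff+ library 2 or both libraries numbered 2 the test called 0 proteasome genes and 0.0% of all genes lower. It called 0 proteasome genes without Eff- library 1, 2 or 3 (0.34, 0.0501 and 1.4% of all genes) and without both libraries numbered 1 (0.952%). It called 2 without Eff+ library 3 (1.21%) and 6 without Eff+ library 1 (2.88%). Of those last 6, 3 were among the first 6 (Psmb6, Psmc5 and Psmd6), and the others were Psma5, Psmf1 and Psmg4. The number of fold changes below 0 was 45 to 49 of 49 in each of these fits (48 of 50 without the filter), and edgeR found 3 to 32 of them at an unadjusted p under 0.05 when libraries were left out.

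**Figure D2:**
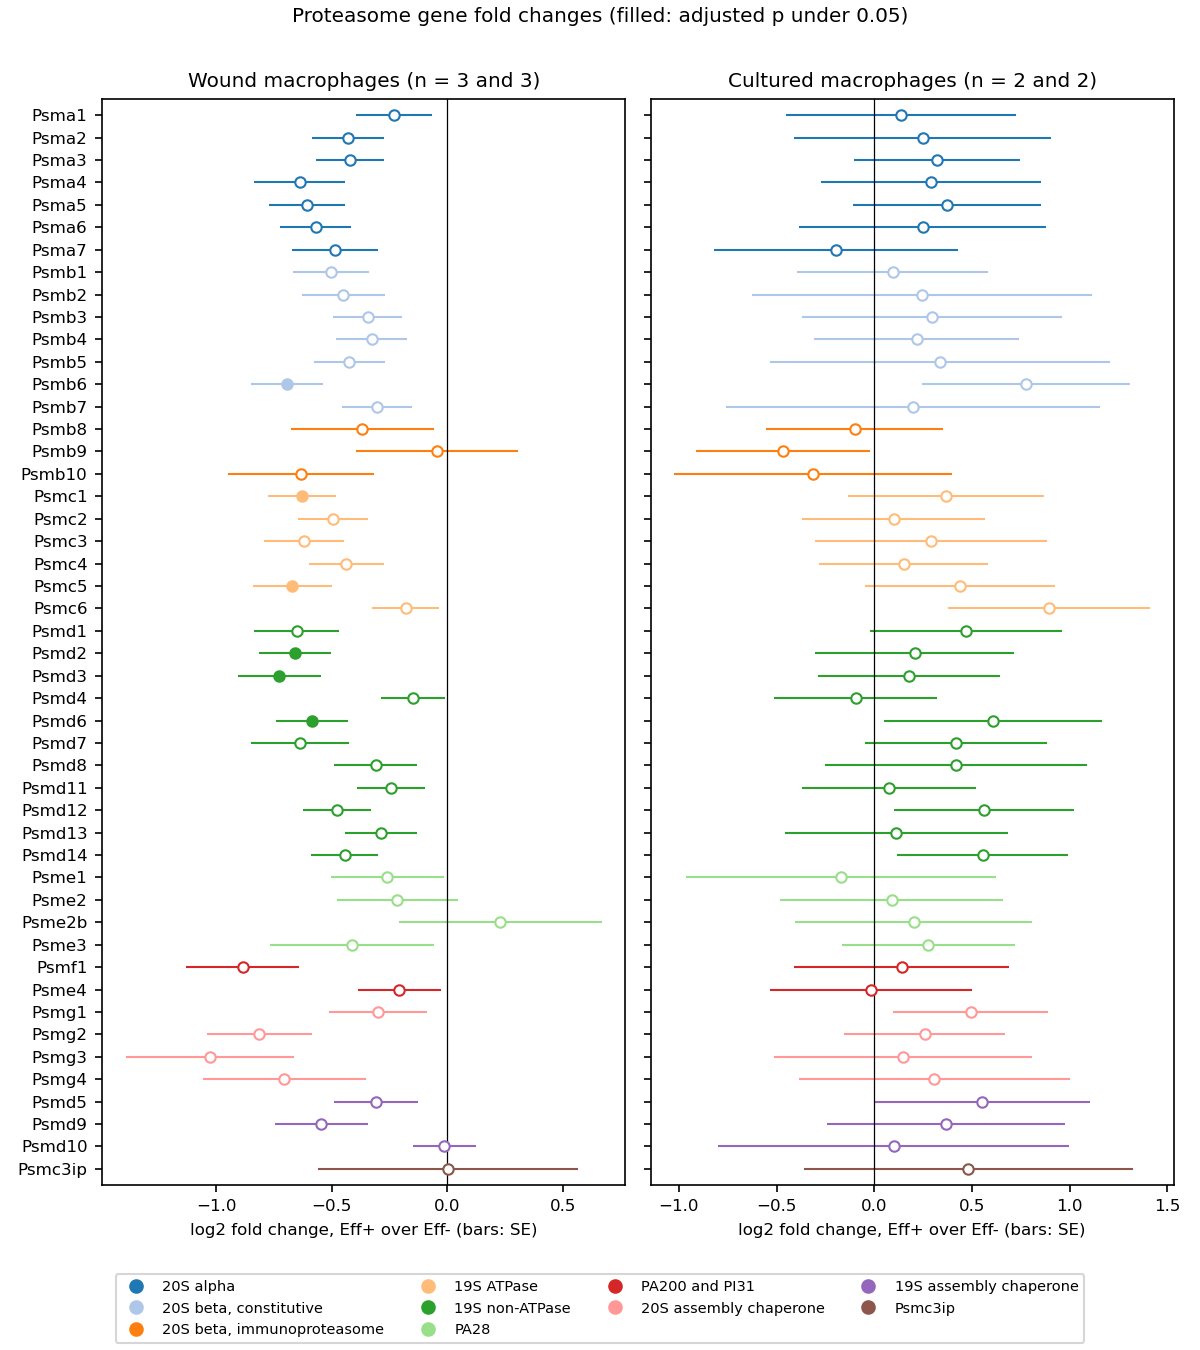
Log2 fold change of Eff+ over Eff- with its standard error for 48 proteasome genes, in wound macrophages (left, 3 libraries a group) and cultured macrophages (right, 2 a group), coloured by subunit class; filled points passed an adjusted p of 0.05, and Psma8 and Psmb11, with few counts, are left out. The wound points of the core and the cap lie left of 0, between -0.73 and -0.15, while culture points lie mostly right of 0 with wide errors.

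In the constitutive core, each of the 14 genes had a negative fold change, from -0.69 to -0.23 with a median of -0.44. The Eff+ and Eff- values did not overlap for 13 of them, the exception being Psma1, and 1 passed the test. Summed over the 14 genes the level was 1802, 1483 and 1529.6 CPM in Eff+ and 2211, 2333 and 2099 CPM in Eff-. Psmb6 (ENSMUSG00000018286, GRCm39 chromosome 11, 70416193 to 70418684, plus strand), the caspase-like cutting subunit, had 165, 141 and 169 CPM in Eff+ against 241, 276 and 252 CPM in Eff-. Each Eff+ library was below each Eff- library, and Psmb6 fell 1.62-fold (log2 fold change -0.69, SE 0.16, adjusted p = 0.0315). Its partners in cutting did not pass the test. Psmb5 (ENSMUSG00000022193, chromosome 14, 54851576 to 54855479, minus strand), the chymotrypsin-like subunit, had 43.9, 48.5 and 55.2 CPM in Eff+ against 60.6, 67.4 and 70.0 CPM in Eff- (log2 fold change -0.42, SE 0.16, adjusted p = 0.115). Psmb7 (ENSMUSG00000026750, chromosome 2, 38478048 to 38534099, minus strand), the trypsin-like subunit, had 49.1, 46.5 and 41.5 CPM in Eff+ against 52.5, 61.8 and 55.0 CPM in Eff- (-0.30, SE 0.15, adjusted p = 0.222). Neither gene's groups overlapped. Among the alpha subunits, which form the outer rings and gate the barrel, Psma4, Psma5 and Psma6 had the most negative fold changes (-0.64, -0.61 and -0.57), with adjusted p-values of 0.0731, 0.0529 and 0.0514.

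The 19S cap held 5 of the 6 genes that fell. All 17 of its fold changes were negative, from -0.73 to -0.15 with a median of -0.50, and 15 of the 17 had no overlap between groups. The summed level was 1700.0, 1659.5 and 1797 CPM in Eff+ and 2322, 2416.5 and 2366 CPM in Eff-. These sums varied little within a group compared with the gap between groups.

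Of the 6 ATPases that form the unfolding ring, 2 fell. Psmc1 (ENSMUSG00000021178, chromosome 12, 100076413 to 100089664, plus strand) had 111, 103 and 120 CPM in Eff+ against 182, 162 and 173 CPM in Eff-, a 1.55-fold fall (log2 fold change -0.63, SE 0.15, adjusted p = 0.0357). Psmc5 (ENSMUSG00000020708, chromosome 11, 106146980 to 106153946, plus strand) had 80.6, 61.0 and 63.5 CPM against 112, 117 and 97.6 CPM, a 1.59-fold fall (-0.67, SE 0.17, adjusted p = 0.0447). Both genes were lower in each Eff+ library than in any Eff- library. Psmc6 was the ATPase with the smallest difference (-0.18, SE 0.15, adjusted p = 0.452), and its groups overlapped.

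Of the 11 other cap subunits, 3 fell. Psmd2 (ENSMUSG00000006998, chromosome 16, 20470402 to 20482164, plus strand), the large scaffold of the base that receives ubiquitin shuttle proteins, had 142, 143 and 172 CPM in Eff+ against 233, 245 and 244 CPM in Eff-, a 1.58-fold fall (log2 fold change -0.66, SE 0.15, adjusted p = 0.0357). Psmd3 (ENSMUSG00000017221, chromosome 11, 98573380 to 98586805, plus strand), a subunit of the lid, had 29.9, 31.6 and 43.0 CPM against 57.8, 60.2 and 54.9 CPM, a 1.65-fold fall (-0.73, SE 0.18, adjusted p = 0.0422). For both, Eff+ library 3 was the highest of its group and still below the Eff- libraries. Psmd6 (ENSMUSG00000021737, chromosome 14, 8348779 to 8357589, plus strand), also of the lid, had 61.4, 49.6 and 49.8 CPM against 80.5, 85.3 and 75.8 CPM, a 1.502-fold fall (-0.59, SE 0.16, adjusted p = 0.0496). Psmd1, the second scaffold of the base, had a fold change of the same size (-0.65, SE 0.18) with an adjusted p of 0.0591. The ubiquitin receptor Psmd4 had the smallest difference of the cap (-0.15, SE 0.14, adjusted p = 0.514), and the deubiquitinase Psmd14, which removes ubiquitin chains from the substrate, had -0.44 (SE 0.14, adjusted p = 0.085).

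**Figure D3:**
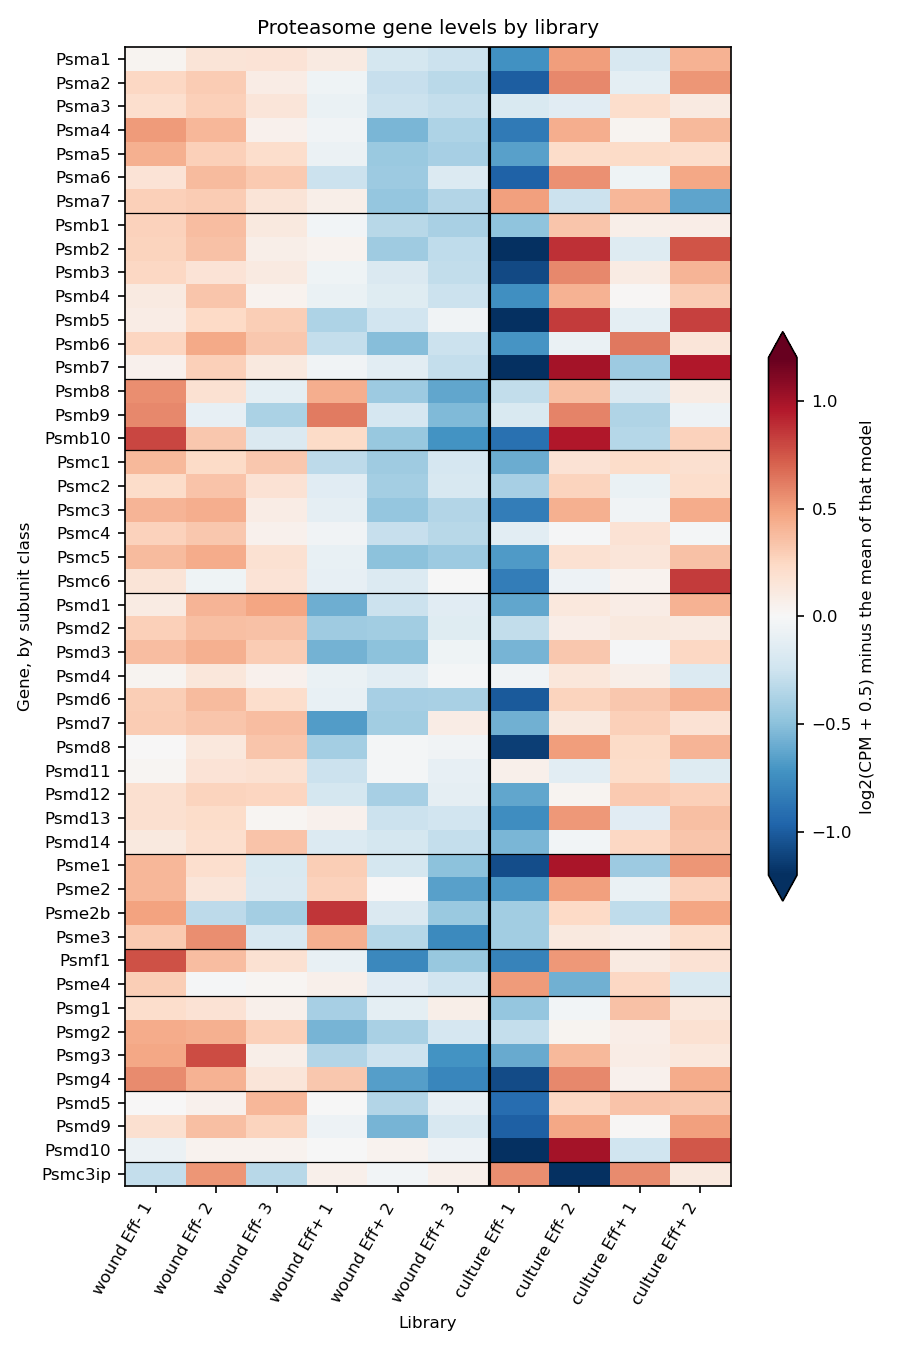
Level of each proteasome gene in each of the 10 libraries, as log2(CPM + 0.5) minus its mean over the libraries of that model; red is above and blue below the mean, the colour scale stops at 1.2 in either direction, and thin lines part the subunit classes. Core and cap rows are red in the 3 wound Eff- libraries, except Psmc6 in library 2, and mostly blue in the 3 Eff+ libraries. In the wound the immunoproteasome, Psme1 and Psme2 are highest in the library numbered 1 of each group, while in culture those libraries are the lower of each group for the same genes, and culture Eff- library 1 is blue in most rows.

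The immunoproteasome subunits varied within each group more than the core did, and none of the 3 passed the test without a block for the library number. Psmb8 (ENSMUSG00000024338, chromosome 17, 34416695 to 34420428, plus strand), which takes the place of Psmb5, had 242, 132 and 116 CPM in Eff+ against 264, 203 and 165 CPM in Eff- (log2 fold change -0.37, SE 0.31, adjusted p = 0.47). Psmb9 (ENSMUSG00000096727, chromosome 17, 34400961 to 34406738, minus strand), which takes the place of Psmb6, had 102, 57.0 and 45.5 CPM against 98.6, 61.5 and 50.5 CPM (-0.04, SE 0.35, adjusted p = 0.95). Psmb10 (ENSMUSG00000031897, chromosome 8, 106662367 to 106665076, minus strand), which takes the place of Psmb7, had 94.6, 58.8 and 48.8 CPM against 141, 101 and 71.6 CPM (-0.63, SE 0.32, adjusted p = 0.226). With the library number as a block, which no label ties to a shared animal, Psmb10 was called lower (-0.64, adjusted p = 0.0198 by edgeR), and its Eff+ over Eff- log2 ratio was -0.57, -0.78 and -0.55 for the 3 numbers. For each of the 3 genes the library numbered 1 was the highest of its group, in Eff+ and Eff- alike, and the groups overlapped. The same was seen in a list of 22 interferon and Irf1 pathway genes, whose summed level was 9653 and 4822 CPM in Eff+ and Eff- libraries 1, and 3451 to 4063 and 2410 to 2645 CPM in the others. The part of these interferon genes in the immunoproteasome values was not tested. Without both libraries numbered 1, the median fold change of the 3 subunits was -0.58, against -0.37 with them.

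The direct comparison of each immunoproteasome subunit with its constitutive counterpart, which does not depend on library scaling, found no difference that passed a test. The log2 ratio of counts per kilobase of Psmb8 to Psmb5 was 0.55, -0.46 and -0.84 in Eff+ and 0.21, -0.32 and -0.67 in Eff-, a difference in means of 0.01 (two-sided exact permutation test, p = 1.0). For Psmb9 to Psmb6 it was -1.67, -2.28 and -2.86 in Eff+ and -2.26, -3.14 and -3.29 in Eff-, a difference of 0.63 (exact permutation p = 0.3, adjusted over the 3 ratios 0.75). This ratio was higher in Eff+ than in the Eff- library of the same number for each of the 3 numbers, but the groups overlapped. For Psmb10 to Psmb7 it was 1.95, 1.34 and 1.24 in Eff+ and 2.43, 1.71 and 1.39 in Eff-, a difference of -0.33 (exact permutation p = 0.5, adjusted 0.75). With 3 libraries against 3 the smallest p this test can give is 0.1.

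**Figure D4:**
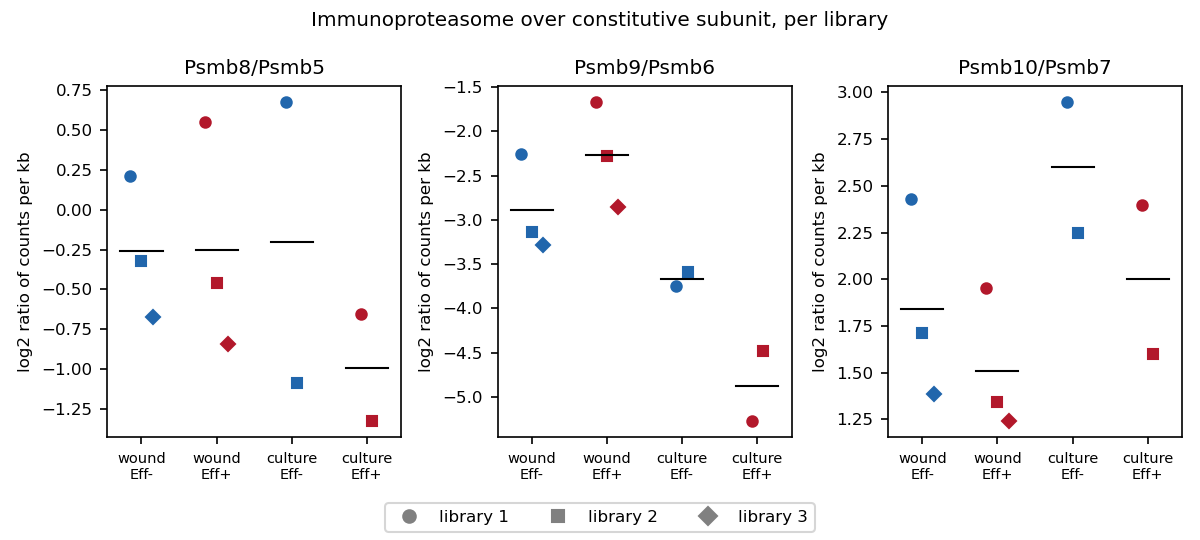
Log2 ratio of counts per kilobase of each immunoproteasome subunit to the constitutive subunit it replaces, per library, in the 4 groups; blue is Eff-, red is Eff+, marker shape gives the library number and the bar the group mean, and each panel has its own axis. In the wound the range from lowest to highest library within a group exceeds the difference between group means. For Psmb9 to Psmb6 in culture both Eff+ points lie below both Eff- points.

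PA28 followed the immunoproteasome in its spread over libraries, and none of its 4 genes passed the test (median log2 fold change -0.24, or -0.26 without the copy Psme2b). Psme1 (ENSMUSG00000022216, chromosome 14, 55815580 to 55818986, plus strand), the alpha subunit, had 145, 102 and 83.6 CPM in Eff+ against 156, 135 and 104 CPM in Eff- (-0.26, SE 0.24, adjusted p = 0.519). Psme2 (ENSMUSG00000079197, chromosome 14, 55824898 to 55828570, minus strand), the beta subunit, had 212, 175 and 111 CPM against 230, 194 and 155 CPM (-0.22, SE 0.26, adjusted p = 0.627). The library numbered 1 was again the highest of each group. Psme3 (ENSMUSG00000078652, chromosome 11, 101207039 to 101214363, plus strand) had 16.8, 9.66 and 7.09 CPM against 15.5, 18.4 and 10.8 CPM (-0.41, SE 0.36, adjusted p = 0.482). PI31 (Psmf1), which inhibits the core in vitro, had 21.9, 13.5 and 16.9 CPM in Eff+ against 39.8, 30.2 and 26.5 CPM in Eff- with no overlap (-0.89, SE 0.24, adjusted p = 0.0557). PA200 (Psme4) overlapped between groups (-0.21, SE 0.18, adjusted p = 0.48).

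The 4 chaperones of 20S assembly had a median log2 fold change of -0.76, and none passed the test. Psmg2 came nearest, at 5.29, 6.00 and 6.89 CPM in Eff+ against 11.1, 11.0 and 9.89 CPM in Eff- (-0.81, SE 0.23, adjusted p = 0.0586). Psmg3 was at 1.83 to 2.72 CPM against 3.51 to 6.07 CPM, and Psmg1 and Psmg4 overlapped between groups. Among the 19S chaperones, Psmd9 had -0.54 (SE 0.20, adjusted p = 0.117) and Psmd5 -0.31 (SE 0.18, adjusted p = 0.296), both without overlap. Psmd10, also known as gankyrin, was level at 62.0 to 66.4 CPM in Eff+ and 61.5 to 66.6 CPM in Eff- (-0.01, SE 0.14, adjusted p = 0.961). Psma8 had 6, 0 and 0 counts in Eff+ and 16, 42 and 38 in Eff-, and entered the test through its Eff- counts. Psmc3ip was at 0.849 to 1.94 CPM in the wound.

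Transcripts of other cell types differed between the same wound groups, where 7.39% of all genes tested rose and 3.79% fell. Of 14 neutrophil markers 12 rose in Eff+ and 0 fell, and their summed level was 24006 to 30778 CPM in Eff+ against 3458 to 6150.5 CPM in Eff-. The defining neutrophil gene Ly6g was at 20.9 to 38.5 CPM in Eff+ and 2.97 to 5.80 CPM in Eff-, and of the 14 genes only Camp was at 0 in any wound library (Eff- library 1). Fibroblast markers (2 of 12 rose) summed to 1018 to 3045 CPM in Eff+ and 298 to 1498 CPM in Eff-, and keratinocyte markers (3 of 5 tested rose) to 39.0 to 73.3 against 5.01 to 17.8 CPM, with Krt5 and Krt14 at 0 in each Eff- library. Of 11 macrophage markers, 1 rose (Cd14) and 4 fell (Adgre1, Mrc1, C1qa and C1qb). Their log2 fold changes were below 0 for 9 and above 0 for 2, with a median of -0.88, against -0.03 over all genes. Their summed level was 22683 to 33053 CPM in Eff+ and 17018 to 23577 CPM in Eff-. Among other markers, 0 of 9 tested for dendritic cells and 0 of 3 tested for T and NK cells passed the edgeR test, with 2 and 0 at an unadjusted p under 0.05. The part of these cells' RNA in the lower proteasome transcripts of wound Eff+ libraries was not tested.

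The lists of partner genes show which neighbours of the proteasome moved in the wound, where 7.39% of all genes tested rose and 3.79% fell. Of 16 proteasome-associated genes 3 fell and 0 rose, with a median log2 fold change of -0.25. Usp14, a deubiquitinase bound to the cap, fell from 61.0 ± 1.496 CPM in Eff- to 32.8 ± 4.34 CPM in Eff+ (SD, n = 3 each; -0.90, adjusted p = 0.0158 by edgeR). The ubiquitin receptor gene Adrm1 fell by 0.55 on the log2 scale (adjusted p = 0.0406). Pomp, the maturation factor of the core, did not pass the test (-0.22, adjusted p = 0.559). Of 12 genes of p97 and its cofactors 2 fell and 0 rose: Vcp, the p97 unfoldase itself, by 0.65 (adjusted p = 0.0337), and its cofactor Nsfl1c by 0.71 (adjusted p = 0.0214). Sqstm1, an autophagy receptor for ubiquitin, had a fold change of 0.53 with an adjusted p of 0.344.

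Of 11 genes known to control proteasome transcription, 4 rose, 0 fell and 7 did not pass the test, while 7.39% of all genes rose. The median log2 fold change was 0.40, and the values ran from -1.17 (Foxo1, adjusted p = 0.0836) to 1.02. Between the libraries numbered 1 alone the median was 0.02, with 6 genes higher and 5 lower in Eff+. Nfe2l2, which encodes the oxidative stress factor Nrf2, had 1091, 1132 and 971 CPM in Eff+ against 538, 491 and 547 CPM in Eff- and rose (1.02, SE 0.17, adjusted p = 0.0132). Nfyb (0.84, adjusted p = 0.0245), Stat3 (0.70, adjusted p = 0.0327) and Foxo3 (0.81, adjusted p = 0.0381) rose as well. Nfe2l1, whose product induces proteasome genes when proteasome activity is low, overlapped between groups (0.40, SE 0.46, adjusted p = 0.608).

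In the interferon and Irf1 list, 3 of 22 genes rose and 0 fell, while 7.39% of all genes rose. Of the 22 fold changes 21 were positive (median 0.64), while 51.3% of all genes were below 0. Jak1 (0.79, adjusted p = 0.0243), Gbp5 (1.56, adjusted p = 0.0318) and Irf1 (0.84, adjusted p = 0.0423) rose. Of 12 genes of MHC class I presentation, 0 passed the edgeR test and 3 had an unadjusted p under 0.05; Tap1 had a fold change of 0.07 and Nlrc5, the activator of class I genes, 0.51. Of 11 genes of ubiquitin and its first enzymes 0 passed, with 2 at an unadjusted p under 0.05. Of 16 cytosolic chaperones, 1 rose (Dnajb1, 0.56, adjusted p = 0.0488) and 0 fell. In this list 13 of the 16 fold changes were negative (median -0.57), against 51.3% of all genes. An unadjusted p under 0.05 was found for 12 of the 16, against 29.9% of all genes in either direction.

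The second comparison asked the same of bone marrow derived macrophages in culture, where 0 of the 49 tested proteasome genes passed the edgeR test, as 0.0% of 14867 genes did. None had an unadjusted p under 0.05, against 0.774% of all genes (0.552% lower), and DESeq2, which called 0.0135% of all genes, and limma-voom called 0 of them. The fold change was above 0 for 42 of the 49 and below 0 for 7, against 53.8% of all genes below 0, with a median of 0.25 against -0.05 over all genes. Every Eff+ value lay above every Eff- value for 13 of the 49, as for 11.3% of all genes, and below for 0, as for 9.42%. On simulated counts with 2 libraries a group, in which few genes were changed, the test recovered 0% of 4-fold changes. The same simulation called 5.49% of 2-fold changes in the wound, where a measured fall of 1.65-fold (Psmd3) passed. It therefore does not settle which differences were detectable in culture.

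The culture differences turned on the low Eff- library. The constitutive core summed to 2415 and 2405 CPM in Eff+ libraries 1 and 2, and to 1551 and 2503 CPM in Eff- libraries 1 and 2. The cap summed to 3292 and 3486 CPM in Eff+ and to 2146 and 3333 CPM in Eff-. Eff- library 1 was the low one in both classes. It was also the library with counts in the most genes (44836), and its macrophage markers summed to 5150 CPM. Eff+ library 1 came next in both, with counts in 35649 genes and a marker sum of 18022 CPM. In the libraries numbered 2 the markers summed to 62763 CPM in Eff+ and 79780 CPM in Eff-. Dendritic cell markers summed to 501 and 200 CPM in Eff- libraries 1 and 2, and to 59.1 and 24.4 CPM in Eff+. Of 9 tested dendritic cell markers, 8 had a log2 fold change below 0 in culture (median -3.14), against 53.8% of all genes, and 0 passed the edgeR test. The part of the macrophage and dendritic cell markers in the low proteasome values was not tested. Without Eff- library 1 the median fold change of the core was -0.25 in place of 0.25, and 27 of the 49 genes lay below 0. Without Eff- library 2 it was 1.39, that of the cap 1.13, and 47 of the 49 lay above 0.

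Within the core, the size of this library difference varied by subunit. Psmb7 had 9.25 and 54.9 CPM in Eff- libraries 1 and 2, and 20.02 and 53.5 CPM in Eff+ libraries 1 and 2. Psmb5 had 17.5 and 93.7 CPM in Eff- and 48.0 and 92.2 CPM in Eff+. Psma7 ran the other way between libraries, with 540 and 321 CPM in Eff- and 505 and 247 CPM in Eff+. The libraries numbered 1 were thus low in both groups for Psmb5 and Psmb7 and high in both for Psma7.

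Of the 13 genes whose culture groups did not overlap, the 4 of smallest p are given. Psmc6, the ATPase with the smallest wound difference, had 82.1 and 143 CPM in Eff+ against 44.6 and 76.5 CPM in Eff- (log2 fold change 0.89, SE 0.52), higher for each library number. Psmb6 had 532 and 379 CPM in Eff+ against 209 and 323 CPM in Eff- (0.78, SE 0.53). Psmd14 had 175 and 185 CPM against 101 and 144 CPM (0.55, SE 0.44). None of these passed the test, with adjusted p-values of 1.0 by edgeR. Psmg1, a chaperone of the core, had 29.9 and 25.7 CPM against 16.7 and 22.8 CPM (0.49, SE 0.40).

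The immunoproteasome subunits had negative fold changes in culture, where those of the core were mostly positive, but neither passed a test. Their median was -0.31 with all libraries and 0.56 without Eff- library 2, and between the libraries numbered 1 it was 0.12, with 2 of the 3 genes higher in Eff+. Psmb8 had 114 and 138 CPM in Eff+ against 105 and 166 CPM in Eff- (-0.10, SE 0.45). Psmb9 had 26.9 and 33.2 CPM against 30.5 and 52.6 CPM (-0.47, SE 0.44). Psmb10 had 52.6 and 80.8 CPM against 35.6 and 130 CPM (-0.31, SE 0.71). Each gene overlapped between the groups. PA28 had fold changes of -0.17 (Psme1), 0.09 (Psme2), 0.28 (Psme3) and 0.20 (Psme2b), each with an SE of 0.44 or more.

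The ratio of Psmb9 to Psmb6 was lower in both culture Eff+ libraries than in both Eff- libraries, at log2 -5.27 and -4.48 against -3.75 and -3.59, a difference of -1.21 (exact permutation p = 0.333, the smallest that 2 against 2 allow; adjusted over the 3 ratios 0.667). For Psmb8 to Psmb5 it was -0.66 and -1.33 against 0.68 and -1.09, a difference of -0.79 that became 0.09 without Eff- library 1. For Psmb10 to Psmb7 it was 2.40 and 1.599 against 2.95 and 2.25, a difference of -0.60 (exact permutation p = 0.667 for both ratios). In culture Irf1 had 12.4 and 18.2 CPM in Eff+ and 19.3 and 32.9 CPM in Eff-, without overlap. Tap1 had 29.9 and 33.6 against 60.9 and 43.3 CPM. Of 22 interferon genes 4 were lower and 0 higher without overlap, and of 12 class I genes 2 were lower and 2 higher. Over all genes these shares were 9.42% lower and 11.3% higher. Between the libraries numbered 1, 12 interferon genes were higher in Eff+ and 10 lower, and between those numbered 2, 4 and 18. By the edgeR test 0 of 22 interferon and 0 of 12 class I genes passed, with 0 at an unadjusted p under 0.05 in either list.

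The last comparison tested the wound contrast against the culture contrast, in 1 fit over the 10 libraries. The edgeR test called 0 of 49 proteasome genes, as it called 0.0% of 20270 genes. At an unadjusted p under 0.05 there were 11 of the 49, against 11.0% of all genes, with DESeq2 calling 1 (5.87% of the genes it tested) and limma-voom 0. The median of the differences (wound minus culture log2 fold change) was -0.72, against 0.32 over all genes, and 47 of the 49 were below 0, against 41.4% of all genes. Without Psma8 these counts were 10 and 46 of 48. The 3 genes of smallest p were Psmb6 (-1.45, SE 0.44, adjusted p = 0.292), Psmd12 (-1.02, SE 0.40, adjusted p = 0.39), a subunit of the lid, and Psmd14 (-0.98, SE 0.38, adjusted p = 0.391). By class the median difference was -0.66 for the core, -0.89 for the cap, -0.24 for the immunoproteasome and -0.17 for PA28. The culture side of these differences turned on single libraries. Its median log2 fold change over the 49 genes was 0.25 with all libraries, -0.15 without culture Eff- library 1 and 1.17 without culture Eff- library 2. Without culture Eff- library 2, so that culture Eff- was represented by the low library alone, 24 of the 49 were called, as were 8.5% of all genes.

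Exon overlap with neighbouring genes could affect the counts of some of these genes. The exons of 14 of the 50 genes overlap those of another gene in the annotation used for counting, 11 of them on the opposite strand, and the wound reads were counted without regard to strand. The overlap covers 14.7% of the exon bases of Psmb8 (an antisense gene), 11.8% of Psmb7 (Nek6), 5.79% of Psmb9 (Tap1) and 21.2% of Psmc3ip (Mlx). Of the 6 genes that fell, Psmd3 alone has such an overlap, over 0.342% of its exon bases.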

How the data were processed

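The authors deposited raw read counts per gene, 1 column per library. Per the file headers, wound reads were counted with featureCounts 1.6.0 with no strand option on the Ensembl release 106 annotation of GRCm39; the culture table records no command. Neither its strand setting nor an aligner for either table is given in the sources used here. Trimmomatic 0.39 and GRCm39 stand in the submitters' processing notes. Another 4 columns of the culture table match no label and were not used. GENCODE vM21 named 52081 of 55414 identifiers (99.91% of counts).

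Libraries were grouped by title. The wound and culture libraries were fitted separately with edgeR 4.0.16 (R 4.3.3): TMM scaling, filterByExpr, quasi-likelihood test, Benjamini-Hochberg adjustment over all genes tested, called under 0.05. Another fit over all 10 libraries tested the difference between models. CPM used TMM-scaled library sizes, and per-kilobase values the merged exon length in the wound table. Ratios of subunits were compared with two-sided exact permutation tests. Coordinates are those of GRCm39.

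The genes and lists were chosen with earlier results of these data known. Genes were named by rule: the 3 immunoproteasome subunits and their counterparts, 3 PA28 genes, called genes, the 4 of smallest p in culture without overlap and the 3 of smallest p between models, and up to 3 called genes a list in each direction with 9 fixed genes, a few of which are not reported here; Psma4 to Psma6, Psma7, Psma8, Psmc3ip, Psmc6 (wound), Psmd1, Psmd4, Psmd14 (wound), Psmd5, Psmd9, Psmd10, Psmf1, Psme4, Psmg1 to Psmg4 and, beyond the first 3 called in their list, Foxo3 were added after their values were seen. Alternatives were other scalings, DESeq2 1.42.0, limma-voom (limma 3.58.1), no filter, a replicate block and leaving out libraries. On simulated counts the wound fit called 5.49% of 2-fold and 52.1% of 4-fold changes among 14164 genes, with 2 false calls; the culture fit called 0% of both among 13752 genes.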

Additional observations from a re-analysis of the deposited data

How the results depend on the processing

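With a library left out, 0 to 6 proteasome genes fell in the wound, against 6. The 6 without Eff+ library 1 shared 3 genes with the 6 called on all libraries, and each other library left out gave 2 or fewer. The count was 0 without both libraries numbered 1 (chosen after seeing the data) or both numbered 2. More fell with DESeq2 (15), limma-voom (11), library totals as the only scaling (36) and a replicate block (16, with Psmb10 among them, when 8.51% of all genes fell), and 4 fell with RLE scaling, without Psmc5 and Psmd6; the cause was not tested. Genes that rose remained 0 in each alternative. Under library totals the class medians of the wound log2 fold change were -0.83 for the core, -0.88 for the cap, -0.76 for the immunoproteasome and -0.64 for PA28. With a library left out they ranged from -0.55 to -0.40 for the core, -0.56 to -0.45 for the cap, -0.76 to -0.17 for the immunoproteasome and -0.47 to -0.05 for PA28.

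In culture 0 proteasome genes were called in each alternative that kept all libraries, where at most 0.323% of all genes were called (replicate block). With a library left out, the class medians ranged from -0.25 to 1.39 for the core and 0.10 to 1.13 for the cap. Those of the immunoproteasome ranged from -0.77 to 0.56 and those of PA28 from -0.21 to 0.99. These fits leave 1 group with a single library, whose spread is taken from the other group. For the difference between models, DESeq2 called 1 gene, and leaving out a library gave 0 to 24. The Psmb8 to Psmb5 difference changed sign: from -0.39 to 0.30 in the wound with a library left out (-0.02 without Eff- library 2, -0.20 without Eff- library 3) and -0.16 without both libraries numbered 1, and from -1.67 to 0.09 in culture. Psmb9 to Psmb6 ranged from 0.33 to 0.94 in the wound and -1.61 to -0.82 in culture, and Psmb10 to Psmb7 from -0.56 to -0.04 and -1.0 to -0.20. The wound fold change of Psmb9 was 0.26 without Eff- library 1, 0.07 without Eff+ library 2 and 0.18 without Eff+ library 3, and that of Psme2 ranged from -0.43 to 0.00 (without Eff+ library 3).

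Same-numbered wound libraries deviated together with correlations of 0.41, 0.02 and 0.23, against -0.35 to 0.15 for libraries of different numbers. Libraries 1 and 3 each correlated best with their own number, and these values do not settle whether the numbers pair the samples. In culture the correlation was 0.74. This is a single value, because 2 libraries of a group deviate from their mean by equal and opposite amounts. No label pairs the libraries in either model. With the replicate block 16 proteasome genes were called lower in the wound, as were 8.51% of all genes. The wound median of the core was then -0.45 and of the cap -0.50. The block fits called 0 proteasome genes in culture (0.323% of all genes) and 0 between models (2.18% of all genes).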

Other observations

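Some proteasome genes stood at very different levels in the wound and culture tables, which were counted and scaled separately, so that tissue, preparation and counting cannot be told apart. Psme3 had 5.05 CPM per kb in wound Eff- and 3.79 in wound Eff+ libraries, against 49.3 and 59.8 in culture Eff- and Eff+. Psmd5, a chaperone of the cap, had 5.92 and 4.77 CPM per kb against 18.6 and 27.3. Psme2, by contrast, had 109 and 94.2 CPM per kb in the wound and 103 and 110 in culture. Psma8, described as a testis subunit, had 34 to 92 counts in each culture library and 0 to 42 in each wound library.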
